A study of Mus musculus with 13 samples.

Results

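The 10 genes described here encode transcription factors that set the identity of plasma cells and of the B cells from which they arise, and they were taken as the rows of the deposited count table that carry their symbols. All 10 of 10 symbols were found among the 22997 symbols of the table. Irf4, Prdm1, Xbp1, Pou2af1, Pou2f2 and Zbtb20 act in plasma cells, and Pax5, Bcl6, Bach2 and Irf8 belong to the B cell and germinal centre stage. The table holds 13 libraries of RNA, each from 50000 mouse bone marrow cells on the C57/BL6 background, sorted as positive for CD138 (the plasma cell proteoglycan syndecan-1) and for CD45.2, and as negative for B220, a form of CD45 found on B cells.

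VQ was 5 libraries from recipients of transplanted tumours with the genotype Vκ*MYC, Nras LSL Q61R/+ and IgG1-Cre, from line D1 (2 recipients), line D4 (1) and line D5 (2). Vκ*MYC is a transgene that carries human MYC and becomes active in germinal centre B cells, IgG1-Cre expresses Cre from the IgG1 locus, and Cre turns the Nras allele into its activated mutant form. tVk12653 was 2 libraries from recipients of 1 transplantable Vκ*MYC tumour line. V was 3 libraries from mice with Vκ*MYC and IgG1-Cre, and WT was 3 libraries from wild-type mice. Only VQ and tVk12653 were taken from hosts of a transplant, so transplantation and genotype cannot be told apart in a comparison of these groups. Recipients of a line share 1 tumour, so the 3 VQ lines were the replicates of VQ. The 2 tVk12653 libraries also come from 1 line but entered as 2 units. P-values against tVk12653 thus describe 1 tumour line and treat its recipients as replicates. Each library has its own label, and each VQ or tVk12653 library is counted here as 1 recipient. The labels do not state outright that libraries of 1 group came from separate animals, so p-values measure the spread between these samples.

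In the textbook account, a B cell is held at its stage by PAX5, BACH2 and, in the germinal centre, BCL6. PAX5 activates genes of the B cell receptor, BACH2 represses Prdm1, and BCL6 represses Prdm1 and genes of the response to DNA damage. In a plasma cell IRF4 induces Prdm1, the product BLIMP1 represses Pax5, Bcl6 and the MHC class II activator Ciita, and XBP1 drives the secretory apparatus. IRF8 and IRF4 are related factors of the interferon regulatory factor family, of which IRF8 is the one typical of germinal centre B cells and myeloid cells.

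Total counts were 2096815 to 8512281 per library, and 3 counts, taken as the detection floor, equal 0.326 to 1.48 CPM (counts scaled to library size). These floors and the counting intervals below cover counting error only. The plasma cell label was checked on Sdc1 (the gene of CD138), which stood at 365 to 1425 CPM in every library, and Jchain (the joining chain of antibody). Jchain stood at 44.5 to 1507 CPM in VQ, 3990 and 6731 CPM in tVk12653, 34798 to 55132 CPM in V and 33486 to 64380 CPM in WT. Of the other markers, Mzb1 was at 0.561 CPM in D4, 127 to 383 CPM in D1 and D5, and 6.69 and 7.24 CPM in tVk12653. V and WT held 274 to 564 CPM of Mzb1. Tnfrsf17 was at 2.82 to 83.5 CPM in VQ, 20.5 and 23.9 CPM in tVk12653, and 82.8 to 149 CPM in V and WT. Slamf7 was at 245 to 602 CPM in the tumours and 700 CPM or more in V and WT. Ptprc, the gene of CD45, was at 1.68 CPM in D4, 1.85 and 6.64 CPM in D5, and 182 CPM or more elsewhere. WT replicate 2 stood apart: its summed neutrophil markers were 9302 CPM against 3385 and 3813 CPM in the other WT libraries, and its summed monocyte and macrophage markers were 1643 CPM against 405 and 386 CPM. D1 replicate 1 had 1244 CPM of neutrophil markers against 359.6 CPM in D1 replicate 2. In V the female transcript Xist was at 1491 CPM or more in all 3 libraries, and in WT it was at 1479 CPM in replicate 1 and at 3.98 CPM or less in replicates 2 and 3, while the Y-linked gene Ddx3y was at 0 in all V libraries and at 47.8, 128 and 141 CPM in WT replicates 1, 2 and 3. WT replicate 1 thus held both transcripts, and sex and genotype cannot be told apart in V against WT.

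The sequences upstream of 4 members were taken from RefSeq (GRCm38.p6), because Irf4 and Irf8 are members of 1 family of which Irf8 fell in the tumours and Irf4 did not pass the test and Bcl6 and Pou2af1 carry a match to a motif bound by MYC or by XBP1. Each runs 5′ to 3′ over the 250 bases before the annotated start, on the gene's strand, and capitals mark the match. The motifs searched on both strands were the E-box bound by MYC (CACGTG), the octamer bound by POU2F2 (ATGCAAAT), an unfolded protein response element bound by XBP1 and related factors (TGACGTGG), the IRF motif and the TATA box (TATAAA). None of these motifs contains another.
Irf4, chr13:30748983-30749232, plus strand: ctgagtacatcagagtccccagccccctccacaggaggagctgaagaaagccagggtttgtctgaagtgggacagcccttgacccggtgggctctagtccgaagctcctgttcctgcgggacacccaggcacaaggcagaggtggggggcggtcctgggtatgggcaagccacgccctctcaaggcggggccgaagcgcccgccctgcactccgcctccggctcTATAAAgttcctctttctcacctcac
Irf8, chr8:120736108-120736357, plus strand: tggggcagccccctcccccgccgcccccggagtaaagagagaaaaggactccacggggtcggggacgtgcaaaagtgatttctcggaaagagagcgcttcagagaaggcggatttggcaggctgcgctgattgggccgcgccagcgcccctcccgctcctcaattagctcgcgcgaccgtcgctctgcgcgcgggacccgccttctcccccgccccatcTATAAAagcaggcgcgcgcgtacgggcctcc
Bcl6, chr16:23988853-23989102, minus strand: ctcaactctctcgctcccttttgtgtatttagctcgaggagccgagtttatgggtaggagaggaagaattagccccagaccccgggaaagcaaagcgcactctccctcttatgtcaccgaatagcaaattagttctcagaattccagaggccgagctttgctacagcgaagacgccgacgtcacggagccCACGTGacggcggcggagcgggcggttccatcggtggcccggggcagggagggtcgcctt
Pou2af1, chr9:51213440-51213689, plus strand: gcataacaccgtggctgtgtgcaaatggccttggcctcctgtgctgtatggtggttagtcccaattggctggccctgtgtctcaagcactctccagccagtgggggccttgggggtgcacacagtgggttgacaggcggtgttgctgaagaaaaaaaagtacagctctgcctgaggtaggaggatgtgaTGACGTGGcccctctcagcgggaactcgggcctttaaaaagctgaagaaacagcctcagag

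Irf4 and Irf8 each had a TATA box, which begins 26 and 31 bases before the start in these genes and occurs in 13.6% of 32851 promoter windows. Bcl6 had the E-box 60 bases before its start, a match found in 7.15% of windows. Pou2af1 had the response element 61 bases before its start, a match found in 0.676% of windows. All 10 members had at least 1 window of 300 bases (250 before and 50 after the start), 12 windows in all. The octamer (1.74% of windows) and the IRF motif (3.44% of windows) matched none of the 12, and the other 6 members had no match to any of the 5 motifs. A match is a description of letters and not a measured binding site.

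Xbp1, Pou2af1, Irf4, Prdm1 and Zbtb20 had the highest levels in every group, and Pou2f2, the other plasma cell factor, lay among the B cell factors. Levels are given here as CPM per kilobase of annotated exon, the only scale on which different genes are compared. In VQ, as the mean of 3 line means, the order was Xbp1 (667), Irf4 (425), Pou2af1 (382), Prdm1 (70.4) and Zbtb20 (46.1), and the other 5 members were at 4.18 CPM per kilobase or less. In tVk12653 the order was Pou2af1 (753.5), Xbp1 (544), Irf4 (342), Prdm1 (108) and Zbtb20 (58.4). In V it was Xbp1 (905), Pou2af1 (516), Irf4 (374), Prdm1 (88.0) and Zbtb20 (44.2), and in WT Xbp1 (838.5), Pou2af1 (438), Irf4 (280.3), Prdm1 (103) and Zbtb20 (41.2). Irf8 stood at 0.168 CPM per kilobase in VQ and 0.103 in tVk12653, against 15.7 in V and 20.7 in WT. Pou2f2 stood at 4.18 in VQ, 12.99 in tVk12653, 19.3 in V and 15.3 in WT. Over the VQ lines the ranges of Xbp1 (438 to 1042), Irf4 (311 to 492) and Pou2af1 (251 to 460) overlapped, as did those of Prdm1 and Zbtb20, so their order there is within the spread. In WT those of Irf4 and Pou2af1 overlapped, and those of Pax5 and Bach2 overlapped in WT (1.99 to 19.5 and 1.70 to 8.26).

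**Figure D1:**
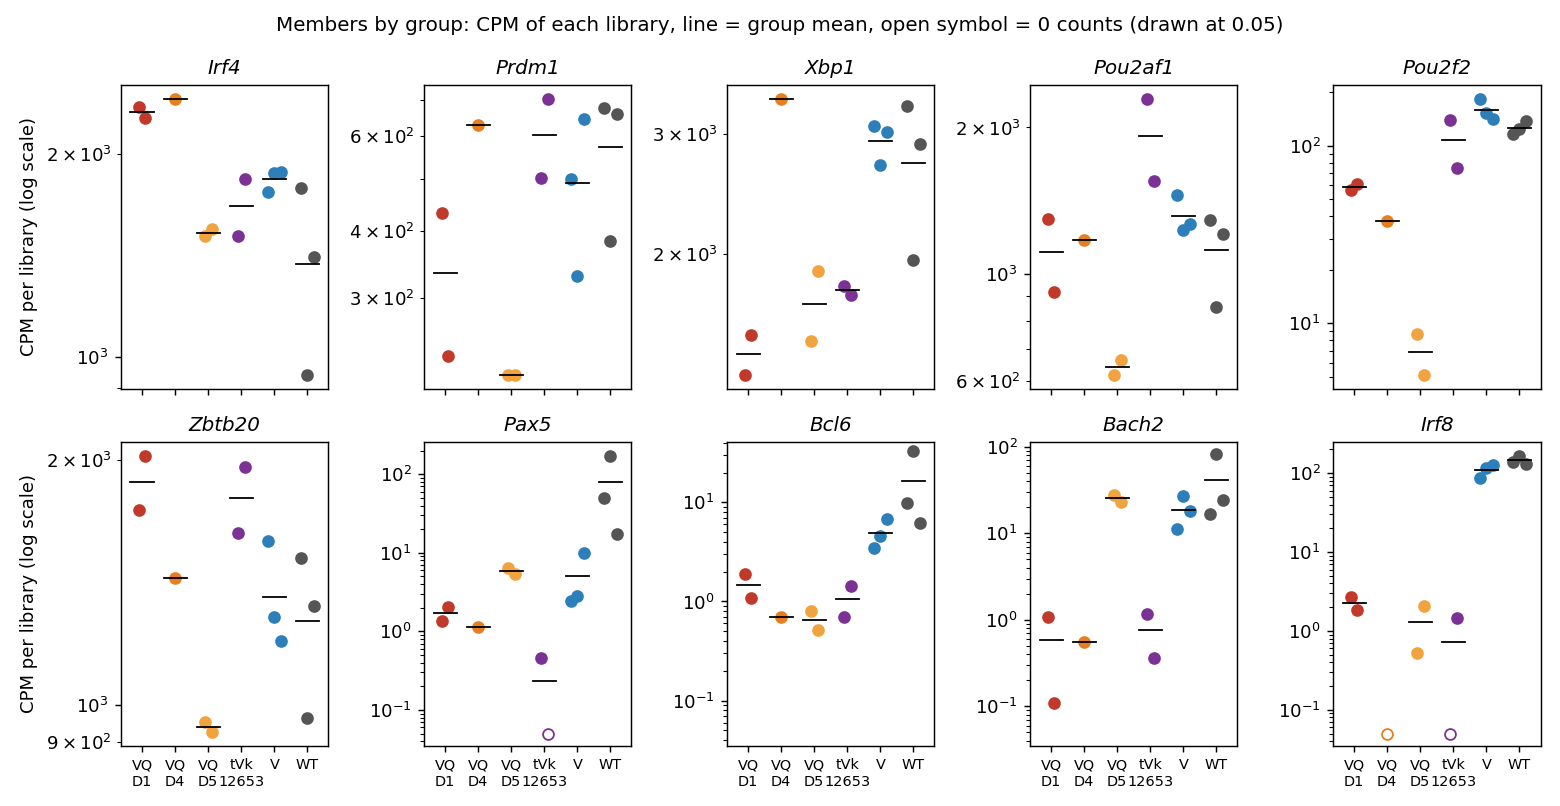
CPM of each of the 10 members in each library (log axis) for VQ lines D1, D4 and D5, tVk12653, V and WT, with a line at the group mean and open symbols at 0 counts. Irf8 lies at 2.69 CPM or less in every tumour library and at 87.6 CPM or more in every V and WT library, while Irf4 stays between 939 and 2414 CPM in all 13.

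In VQ against WT, which sets the tumours driven by MYC with activated Nras against normal plasma cells, 4 of the 10 members were called, all lower: Irf8, Pax5, Bcl6 and Pou2f2. By edgeR's quasi-likelihood test with an adjusted p under 0.05, 32.4% of the 11933 genes tested were called, 15.1% lower. Of the 6 plasma cell factors Pou2f2 passed, and the other 5, Irf4, Prdm1, Xbp1, Pou2af1 and Zbtb20, did not, with log2 fold changes of -0.56 to 0.64. The median over the 10 members was -1.19, beside 0.08 over all genes tested. In bulk RNA, fewer cells with a transcript and less of it per cell cannot be told apart. With so few units per group, ranges can separate with no change, and the share of all genes that separate was not counted. Overlap is thus given here and below as a description only.

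Irf8 (chromosome 8, 120736358 to 120756694 in GRCm38.p6, the build of all positions here) had the largest fall of the 10. It stood at 2.69 and 1.84 CPM in the D1 recipients, 0 in D4, and 0.529 and 2.04 CPM in D5, against 139.9, 166 and 132 CPM in WT. Every VQ library lay below every WT library. The log2 fold change was -6.81 ± 0.79 (adjusted p = 4.39e-04), and with a floor of 3 counts D4 was at least 344-fold lower than WT. The call held with each WT library or VQ line left out. Irf8 is also a gene of monocytes and dendritic cells: the summed monocyte and macrophage markers were 5.56 to 74.4 CPM in VQ and 386 to 1643 CPM in WT, and the summed dendritic cell markers 2.55 to 66.3 CPM in VQ and 80.4 to 106 CPM in WT. All 8 monocyte markers had counts in every WT library and 4 to 8 of 8 in VQ, and Csf1r, which defines these cells, was at 0 to 3.22 CPM in VQ and 8.09 to 46.0 CPM in WT. The part of these cells in the fall was not tested.

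Pax5 (chromosome 4, 44524748 to 44710694), the factor that commits cells to the B lineage, was next. It stood at 1.34 and 2.06 CPM in D1, 1.12 CPM in D4 (8 reads, 95% exact binomial interval 0.484 to 2.21), and in the D5 recipients at 6.35 and 5.36 CPM, against 49.6, 172 and 17.6 CPM in WT. The groups did not overlap, and WT itself spread widely, with replicate 2 highest. The log2 fold change was -4.69 ± 1.00 (adjusted p = 0.00690), and the call held with each WT library or VQ line left out, at -3.44 without WT replicate 2. Summed B cell markers were 67.9 to 214.5 CPM in VQ and 529 to 830.3 CPM in WT, and Cd79a was at 0.766 CPM or less in VQ and 211 to 407 CPM in WT. The part of B cells in the fall was not tested.

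Bcl6 (chromosome 16, 23965050 to 23988866), the repressor that maintains germinal centre B cells, was low throughout. It stood at 1.88 and 1.09 CPM in D1, 0.701 CPM in D4 (5 reads, interval 0.228 to 1.64), and in the D5 recipients at 0.794 and 0.511 CPM, against 9.85, 33.1 and 6.25 CPM in WT. All VQ libraries were below all WT libraries, and replicate 2 was again the highest of WT. The log2 fold change was -4.08 ± 0.72 (adjusted p = 0.00287), and -3.06 without WT replicate 2 (adjusted p = 0.0100).

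Pou2f2 (chromosome 7, 25087350 to 25180797), which encodes the octamer-binding protein OCT2, fell by less. It stood at 56.7 and 60.8 CPM in D1, 37.6 CPM in D4, and in the D5 recipients at 8.73 and 5.11 CPM, against 117, 124 and 138 CPM in WT. The lines were graded and none reached a WT library. The log2 fold change was -1.82 ± 0.57 (adjusted p = 0.0360), and leaving out any WT library or line D4 ended the call, with adjusted p = 0.0635 to 0.0854, as did testing without the low count filter (0.0923).

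Bach2 (chromosome 4, 32238413 to 32586109), which delays plasma cell differentiation, split the VQ lines. It stood at 1.07 and 0.109 CPM in D1 (4 reads and 1 read), 0.561 CPM in D4 (4 reads, interval 0.153 to 1.44), and in the D5 recipients at 27.5 and 23.2 CPM, against 16.9, 82.1 and 24.4 CPM in WT. D5 thus lay inside the WT range while D1 and D4 lay near the floor. VQ as a whole was not called (log2 fold change -2.15 ± 1.28, adjusted p = 0.223), and without D5 it was, at -6.40 with adjusted p = 8.34e-04.

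Of the factors that did not pass, Irf4 (chromosome 13, 30749233 to 30766981), without which plasma cells do not form or survive, stood at 2347 and 2261 CPM in D1, 2414 CPM in D4, and in the D5 recipients at 1509 and 1545 CPM, against 1779, 939 and 1404 CPM in WT. D1 and D4 lay above every WT library and D5 between them. The log2 fold change was 0.64 ± 0.24 (adjusted p = 0.0649), and it passed without WT replicate 1 (0.87, adjusted p = 0.0363) or without D5 (0.78, adjusted p = 0.0248). Prdm1 (chromosome 10, 44437174 to 44528558), the gene of BLIMP1, spanned 215 to 630.3 CPM in VQ and 382 to 676 CPM in WT (log2 fold change -0.56 ± 0.40, adjusted p = 0.304). Without D4, the line with the most Prdm1, it was called lower at -1.10 (adjusted p = 0.0334).

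Xbp1 (chromosome 11, 5520641 to 5525993), the factor of the unfolded protein response, spanned 1327 to 3385 CPM in VQ and 1959.9 to 3303 CPM in WT, with a log2 fold change of -0.28 ± 0.29. D4 lay above the WT range and the other 4 VQ libraries below it, and without D4 Xbp1 was called lower (-0.70, adjusted p = 0.0335). Gene counts do not separate the spliced, active form of Xbp1 mRNA from the unspliced form. Pou2af1 (chromosome 9, 51213690 to 51240079), the OCT2 coactivator, spanned 618 to 1297 CPM in VQ and 854 to 1288 CPM in WT (-0.19 ± 0.25). Zbtb20 (chromosome 16, 42875689 to 43634392), a zinc finger repressor that supports long-lived plasma cells, spanned 927 to 2024 CPM in VQ and 963 to 1513 CPM in WT (0.23 ± 0.27, and -0.08 without D1). The ranges of VQ and WT overlapped for each of these 3 genes.

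**Figure D2:**
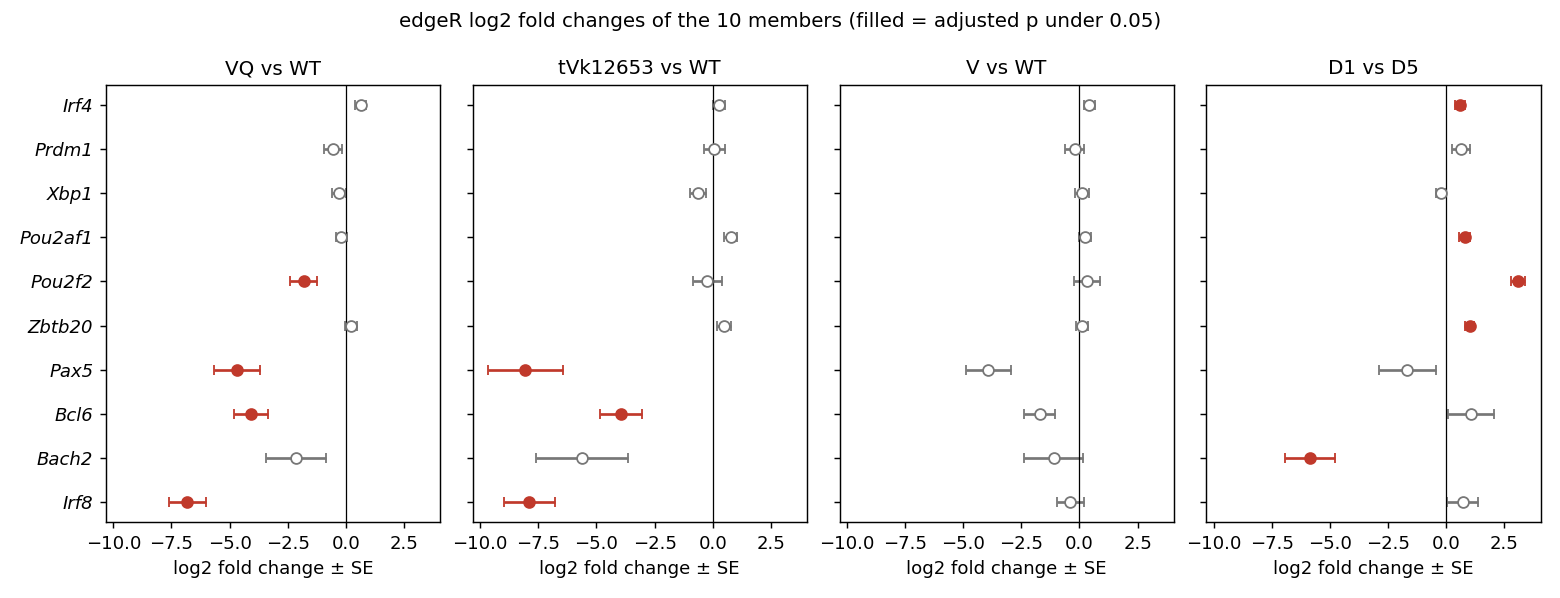
log2 fold changes (± standard error) of the 10 members in VQ against WT, tVk12653 against WT, V against WT and D1 against D5, from edgeR, with filled symbols for an adjusted p under 0.05. Irf8, Pax5 and Bcl6 are filled and below 0 in both tumour comparisons with WT, and Bach2 is filled in D1 against D5 alone.

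In tVk12653 against WT, which sets a MYC tumour line whose labels list no Nras allele against normal plasma cells, 3 of the 10 members were called lower: Irf8, Pax5 and Bcl6. Here 28.2% of the 11933 genes were called, 15.7% lower. The median over the 10 members was -0.43, beside -0.045 over all genes tested. This comparison shares its WT libraries with VQ against WT, so the values stand side by side and are not independent. Summed monocyte and macrophage markers were 8.77 and 5.43 CPM in tVk12653, against 386 to 1643 CPM in WT. Summed dendritic cell markers were 55.6 and 43.8 CPM in tVk12653 (Cox6a2 averaged 43.5 CPM), against 80.4 to 106 CPM in WT. The part of these cells in the fall of Irf8 was not tested. Irf8 was at 0 and 1.45 CPM in tVk12653, against 132 to 166 CPM in WT (log2 fold change -7.89 ± 1.10, adjusted p = 0.00140). Its call held with either tVk12653 library left out.

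Pax5 was at 0.462 CPM and 0 in tVk12653 (2 reads in both libraries together) and at 17.6 to 172 CPM in WT. Pooled over libraries the level was 262-fold lower in tVk12653, with a 95% counting interval of 72.3 to 2169 that leaves out the spread between libraries. The fitted log2 fold change was -8.05 ± 1.61 (adjusted p = 0.00683). Bcl6 was at 0.693 and 1.45 CPM in tVk12653, against 6.25 to 33.1 CPM in WT (-3.96 ± 0.90, adjusted p = 0.0109). Leaving out either tVk12653 library ended both calls, with adjusted p = 0.0524 and 0.0655 for Pax5 and 0.0988 and 0.0629 for Bcl6.

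Bach2 was at 1.15 and 0.362 CPM in tVk12653, against 16.9 to 82.1 CPM in WT, with no overlap, and missed the threshold (-5.61 ± 1.98, adjusted p = 0.0589). It passed with DESeq2 (adjusted p = 6.71e-04). Pou2f2, which fell in VQ, was at 139 and 75.2 CPM in tVk12653, the first just above and the second below the WT range of 117 to 138 CPM (-0.24 ± 0.63, adjusted p = 0.813).

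The plasma cell factors of tVk12653 did not pass in that fit. Pou2af1 was at 2292 and 1549 CPM in tVk12653, against 1288, 854 and 1209 CPM in WT, so both tumour libraries were higher than all of WT (0.78 ± 0.27, adjusted p = 0.0559, and 0.0325 with DESeq2). Xbp1 was at 1796 and 1739 CPM in tVk12653, below the WT range of 1959.9 to 3303 CPM (-0.62 ± 0.34, adjusted p = 0.192). Irf4, Prdm1 and Zbtb20 had log2 fold changes of 0.29, 0.08 and 0.50, with adjusted p = 0.232 to 0.918.

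In V against WT, which sets MYC transgenic plasma cells against normal ones, edgeR called 0 of the 10 members and 0% of the 11933 genes. At an unadjusted p under 0.05 there were 628 genes and 2 members, Pax5 and Bcl6. The 628 genes are 5.26% of those tested, near the share that this threshold passes with no change. DESeq2 called 45 genes and 1 member, Pax5. V and WT libraries of the same number correlated weakly (r = 0.125 to 0.190), and the labels do not pair them. With that number as a block, edgeR called 91 genes in the fit of all libraries and 479 with V and WT alone. Members called were 0 in both. Pax5 was at 2.46, 2.84 and 10.05 CPM in V, against 49.6, 172 and 17.6 CPM in WT. Each V library was below each WT library. The log2 fold change was -3.91 ± 0.99 (adjusted p = 0.637 with edgeR and 0.00786 with DESeq2), and -2.68 without WT replicate 2.

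The summed B cell markers overlapped between V and WT, but single genes separated in both directions. Cd22 was lower in V, and Ms4a1 and Cd79b were higher in V, with no overlap. Ms4a1 was at 110 to 209 CPM in V and 57.3 to 97.9 CPM in WT. Cd79b was at 278 to 332 CPM in V and 201 to 262 CPM in WT. Summed over the 7 markers found in the table, B cell markers were 661 to 899 CPM in V and 529 to 830.3 CPM in WT. All 7 had counts in every V and WT library. Cd79a, a signalling chain of the B cell receptor, was at 231 to 389 CPM in V and 211 to 407 CPM in WT, while Cd22 was at 6.81 to 8.17 CPM in V and 11.96 to 72.9 CPM in WT. Bcl6 was at 3.45, 4.62 and 6.81 CPM in V, against 9.85, 33.1 and 6.25 CPM in WT, with overlap (-1.70 ± 0.66, and -0.68 without WT replicate 2). Bach2 (11.3, 27.0 and 18.2 CPM in V) and Irf8 (87.6, 117 and 127 CPM in V) had log2 fold changes of -1.11 ± 1.26 and -0.39 ± 0.59. Irf4 was at 1753, 1875 and 1877 CPM in V, against 1779, 939 and 1404 CPM in WT (0.43 ± 0.24), and 0.22 without WT replicate 2.

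WT replicate 2 was the WT library with the most Pax5, Bcl6, Bach2 and Irf8 and the least Irf4, Prdm1, Xbp1, Pou2af1 and Zbtb20. It also held the most neutrophil, monocyte and erythroid marker RNA (9302, 1643 and 840.1 CPM). Genes of mature B cells were highest there too: Cd22 was at 72.9 CPM, against 11.96 and 13.9 CPM in the other WT libraries, Cr2 at 23.9 CPM against 0.703 and 5.68 CPM, and Fcer2a at 29.4 CPM against 0.352 and 2.56 CPM. Cd79a, at 228 CPM, and Cd79b, at 201 CPM, were not. The part of these cells in its values was not tested. With it and D1 replicate 1 left out, VQ against WT still called Irf8, Pax5 and Bcl6 lower but not Pou2f2 (adjusted p = 0.0747).

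**Figure D3:**
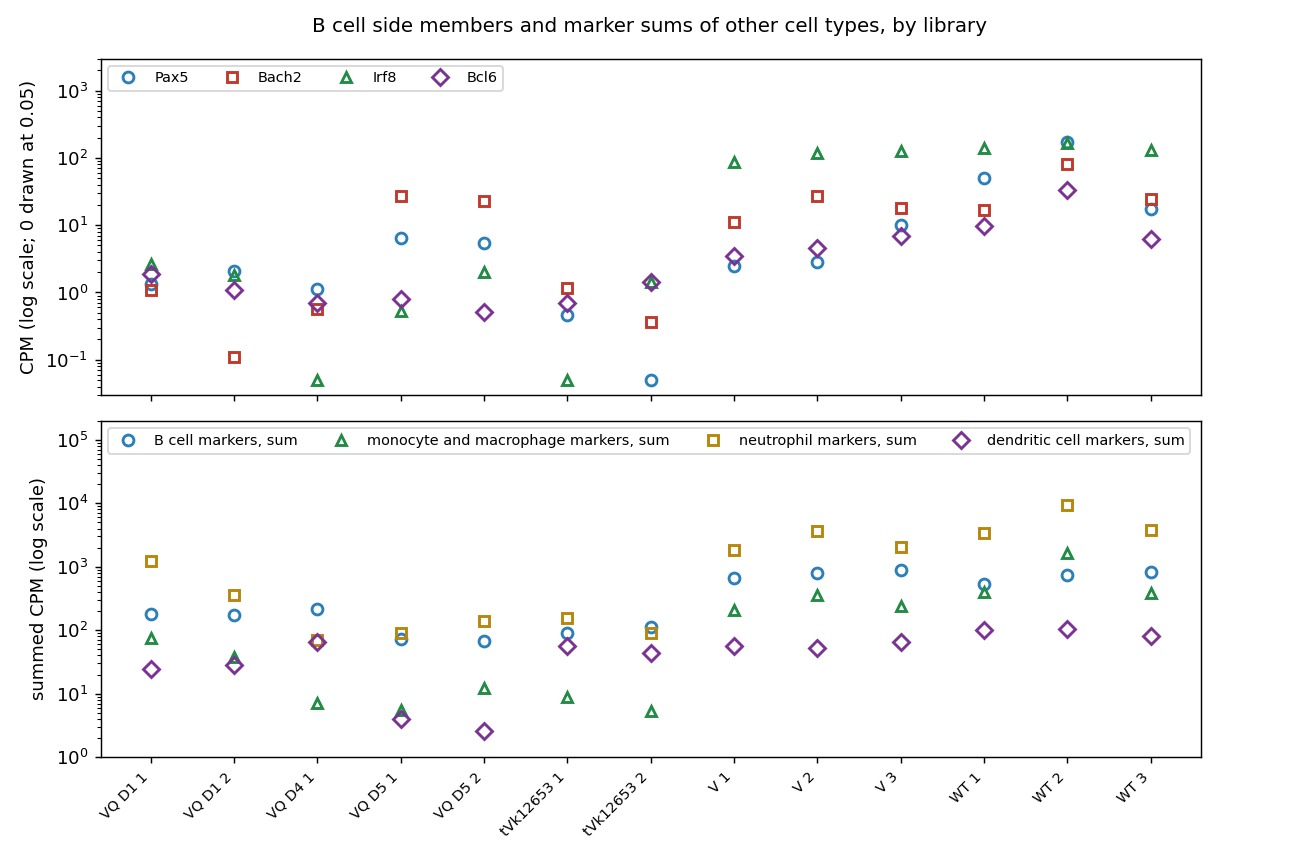
Top, CPM of Pax5, Bach2, Irf8 and Bcl6 in each library (log axis, 0 drawn at 0.05), and bottom, summed CPM of B cell, monocyte and macrophage, neutrophil and dendritic cell markers, for VQ, tVk12653, V and WT. WT replicate 2 is the highest WT library for all 4 genes and for neutrophil (9302 CPM) and monocyte (1643 CPM) markers, and Bach2 lies at 27.5 and 23.2 CPM in D5 and at 1.07 CPM or less in D1 and D4.

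In VQ against V, which shares the MYC transgene and Cre and differs in the Nras allele and in transplantation, 3 of the 10 members were called lower: Irf8, Bcl6 and Pou2f2. Of the 11933 genes 28% were called, 12.4% lower. Irf8 was at 0 to 2.69 CPM in VQ and 87.6 to 127 CPM in V (log2 fold change -6.42 ± 0.78, adjusted p = 7.44e-04). Pou2f2 was at 5.11 to 60.8 CPM in VQ and 141 to 184 CPM in V (-2.16 ± 0.58, adjusted p = 0.0222), and Bcl6 at 0.511 to 1.88 CPM in VQ and 3.45 to 6.81 CPM in V (-2.38 ± 0.70, adjusted p = 0.0304). None of these 3 ranges overlapped. Summed monocyte and macrophage markers were 5.56 to 74.4 CPM in VQ and 210 to 360 CPM in V. Summed dendritic cell markers overlapped, at 2.55 to 66.3 CPM in VQ (57.9 CPM of it Cox6a2 in D4) and 53.3 to 65.8 CPM in V. The part of these cells in the fall of Irf8 was not tested. Leaving out any V library ended the calls of Pou2f2 (adjusted p = 0.0510 to 0.0633, and 0.0615 without the low count filter) and Bcl6 (0.0532 to 0.105), and so did leaving out D4 or D5 for Bcl6 (0.0624 and 0.0508). Pax5, by contrast, was at 1.12 to 6.35 CPM in VQ and 2.46 to 10.05 CPM in V, which overlapped (-0.78 ± 0.96, adjusted p = 0.573).

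In tVk12653 against V, 1 of the 10 members was called, Irf8, lower (0 and 1.45 CPM in tVk12653 against 87.6 to 127 CPM in V, log2 fold change -7.49 ± 1.10, adjusted p = 0.00208). Summed monocyte and macrophage markers were 8.77 and 5.43 CPM in tVk12653 and 210 to 360 CPM in V. Summed dendritic cell markers overlapped, with Cox6a2 at a mean of 43.5 CPM in tVk12653 and 19.4 CPM in V. The part of these cells in the fall of Irf8 was not tested. Of all genes 23.2% were called, 10.3% higher and 12.9% lower. Pax5 (-4.14 ± 1.65), Bcl6 (-2.25 ± 0.87) and Bach2 (-4.50 ± 1.94) missed the threshold (adjusted p = 0.0968, 0.0867 and 0.119). With DESeq2, Pax5 (adjusted p = 0.0160) and Bach2 (0.00935) passed.

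In VQ against tVk12653, which sets the tumours against each other, 1 of the 10 members was called, Pou2af1, lower in VQ. Of all genes 10.2% were called, 5.97% higher and 4.19% lower. Pou2af1 was at 1297 and 918 CPM in D1, 1172 CPM in D4, and in the D5 recipients at 618 and 663 CPM, against 2292 and 1549 CPM in tVk12653 (log2 fold change -0.97 ± 0.27, adjusted p = 0.0493). All VQ libraries lay below both tVk12653 libraries. The call ended without D5 (adjusted p = 0.0518) or either tVk12653 library (0.316 and 0.107). Pou2f2 was at 5.11 to 60.8 CPM in VQ and at 139 and 75.2 CPM in tVk12653, with no overlap (-1.58 ± 0.62, adjusted p = 0.127), and passed without D1 (-2.27, adjusted p = 0.0357) or without D5 (-1.15, adjusted p = 0.0296). Irf8 was at 0 to 2.69 CPM in VQ and 0 and 1.45 CPM in tVk12653 (1.07 ± 1.24, adjusted p = 0.591), values near the floor where counts cannot show a difference of this size. Pax5 was at 1.12 to 6.35 CPM in VQ and 0.462 CPM and 0 in tVk12653 (3.36 ± 1.66, adjusted p = 0.207).

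Among VQ lines, D1 against D5 compares 2 tumours over 2 recipients each, and 5 of the 10 members were called, 4 higher and 1 lower in D1. Of the 12835 genes tested 41.7% were called, 20% higher and 21.7% lower. Bach2 was at 1.07 and 0.109 CPM in D1 (5 reads in both) and 27.5 and 23.2 CPM in D5, a log2 fold change of -5.85 ± 1.08 (adjusted p = 0.00150). Pooled over recipients the counts were 65.6-fold lower in D1, with a 95% counting interval of 27.6 to 204. D1 and D5 did not overlap.

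Pou2f2 went the other way, at 56.7 and 60.8 CPM in D1 and 8.73 and 5.11 CPM in D5 (3.09 ± 0.31, adjusted p = 5.36e-06). Zbtb20 was at 1736 and 2024 CPM in D1 and 953 and 927 CPM in D5 (1.00 ± 0.20, adjusted p = 0.00107). Bach2, Pou2f2 and Zbtb20 kept their calls with any 1 of the 4 recipients left out. Pou2af1 was at 1297 and 918 CPM in D1 and 618 and 663 CPM in D5 (0.79 ± 0.23, adjusted p = 0.0127), and the call ended without D1 replicate 1 (adjusted p = 0.139) or either D5 recipient (0.0828 and 0.0532).

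Irf4 was at 2347 and 2261 CPM in D1 and 1509 and 1545 CPM in D5 (0.59 ± 0.22, adjusted p = 0.0402), and its call ended with any 1 of the 4 recipients left out (adjusted p = 0.0961 to 0.150), with relative log expression factors (0.0537) and with the replicate number as a block (0.0540). Prdm1 was at 432 and 233 CPM in D1 and at 215 CPM in both D5 recipients (0.63 ± 0.39, adjusted p = 0.228). Xbp1 (1327 and 1520.0 CPM in D1, 1489 and 1892 CPM in D5), Pax5, Bcl6 and Irf8 did not pass either (adjusted p = 0.304 to 0.433). Without the low count filter Prdm1 and Pax5 passed (adjusted p = 0.00312 and 9.50e-04). D4 had 1 library and no test: it held 3385 CPM of Xbp1 and 630.3 CPM of Prdm1, the most of the VQ lines for both. Summed B cell markers were 179 and 171 CPM in D1, 214.5 CPM in D4, and 72.5 and 67.9 CPM in the D5 recipients, nearly all of it Cd79b.

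Genes that these factors control or work beside were counted in 5 lists, which hold other B cell factors, genes activated by PAX5, secretory targets of XBP1, other plasma cell genes, and other IRF, octamer and related factors. In VQ against WT 9 of 14 genes activated by PAX5 fell and 1 rose, with a median log2 fold change of -3.86 beside 0.08 over all genes tested. The genes called are 71.4% of the list, beside 32.4% of all genes. Among those that fell were Cd79a (-10.31 ± 0.79), Cd22, an inhibitory receptor (-7.16 ± 1.25), and Vpreb3 (-5.82 ± 1.00). Blnk, an adaptor of B cell receptor signalling, rose (0.60 ± 0.20, adjusted p = 0.0444). In tVk12653 against WT 7 of 14 fell and 0 rose (median -4.21, or -3.81 with genes at 0 set at their bound). These 7 are 50% of the list, beside 28.2% of all genes. Cd22, Ms4a1 (CD20) and Lef1 had 0 counts in both tVk12653 libraries, and with a floor of 3 counts over the group Ms4a1 was at least 198-fold lower and Cd22 at least 73.2-fold lower than in WT. Leaving out both WT replicate 2 and D1 replicate 1, 7 of 13 fell in VQ with 0 higher (median -3.16), and 5 of 13 fell in tVk12653 (median -2.27). In V against WT 0 of 14 were called (median -0.31), and 0 of 13 with those libraries left out, where the median was 0.135.

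Other B cell factors fell in 8 of 17 in VQ against WT with 0 higher (median -0.86), and in 6 of 17 in tVk12653 against WT (median -1.14). These are 47.1% and 35.3% of those tested. Of all genes 15.1% and 15.7% were called lower, and 32.4% and 28.2% in either direction. Ebf1, which works with PAX5 to commit B cells, fell in both (-5.39 ± 0.69 in VQ and -8.24 ± 1.15 in tVk12653). So did Bcl11a (-4.61 ± 0.91 in VQ and -6.63 ± 1.35 in tVk12653). In VQ Ciita (-4.64 ± 1.18) and Myb (-3.21 ± 0.81) fell as well. Ciita was at 59.2 CPM in WT replicate 2 and at 3.52 and 1.99 CPM in the other WT libraries. WT also spread widely for Bcl11a (17.6 to 94.6 CPM) and Myb (57.4 to 149 CPM). The highest VQ library held 4.76 CPM of Bcl11a and 24.6 CPM of Myb. Leaving out WT replicate 2 together with D1 replicate 1, 6 of 17 fell in VQ and 5 of 17 in tVk12653. Ebf1 was at 0.115 CPM on average in tVk12653, and at 2.72, 0.421 and 0.260 CPM as the means of lines D1, D4 and D5, with 49.9 CPM in WT. In D1 against D5 6 of 18 were higher and 4 lower in D1, together 55.6% of the list beside 41.7% of all genes. The higher ones included Relb, an NF-kB subunit (5.98 ± 0.50), Ets1 (4.62 ± 0.40), Mef2b (3.41 ± 0.66) and Ebf1 (3.13 ± 0.80), and the lower ones were Ikzf3 (-2.48 ± 0.45), Foxo1 (-1.48 ± 0.22), Nfatc1 (-0.73 ± 0.20) and Tcf4 (-0.42 ± 0.16).

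XBP1 secretory targets had no single direction. In VQ against WT 4 of 22 rose and 2 fell (median 0.29), 27.3% of the list beside 32.4% of all genes, with the disulfide isomerase Pdia6 (1.44 ± 0.28) and the translocon subunit Ssr3 (1.27 ± 0.40) higher and the chaperone Dnajb9 (-1.24 ± 0.24) lower. Leaving out both WT replicate 2 and D1 replicate 1, which for the lists was added after seeing the data, 1 rose and 2 fell. In tVk12653 against WT 1 rose, Sel1l (1.90 ± 0.40), and 5 fell (median -0.22), also 27.3% beside 28.2% of all genes, among them Dnajc3 (-1.35 ± 0.19), Dnajb9 (-1.12 ± 0.28) and Syvn1 (-1.09 ± 0.19). In D1 against D5 2 were higher and 10 lower in D1, led by Ssr3 (-1.91 ± 0.16), Sec61b (-1.69 ± 0.19) and Sec24d (-1.47 ± 0.14), which belong to protein entry into and exit from the endoplasmic reticulum. The genes called there are 54.5% of the list, beside 41.7% of all genes.

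Other plasma cell genes fell in 6 of 19 and rose in 1 in VQ against WT (median -0.58), and the 1 that rose was Eaf2 (0.89 ± 0.22). These 7 are 36.8% of the list, near the 32.4% of all genes called. Prg2 (-6.10 ± 1.03), Jchain (-5.98 ± 1.00), the ectoenzyme Cd38 (-5.29 ± 0.90) and the costimulatory receptor Cd28 (-1.46 ± 0.37) had the largest falls among genes past the threshold. In tVk12653 against WT 5 of 19 fell (median -0.66), among them Mzb1, a chaperone of antibody assembly (-5.47 ± 1.70), and Cd38, which had 0 counts in both libraries and was at least 55.7-fold lower than in WT. These 5 are 26.3% of the list, near the 28.2% of all genes called. In D1 against D5 8 were higher and 3 lower, with Tnfrsf17 (the survival receptor BCMA) lower in D1 at -3.87 ± 0.42. The genes called there are 57.9% of the list, beside 41.7% of all genes. Of other IRF and octamer factors 6 of 12 tested fell and 1 rose in VQ against WT (median -0.69), with Irf5 (0.57 ± 0.18) higher and Zbtb18 (-3.28 ± 0.52), Irf7 (-1.92 ± 0.48) and Irf2 (-1.79 ± 0.53) lower. The called factors are 58.3% of those tested, beside 32.4% of all genes. With the same 2 libraries left out 3 fell and 0 rose. In tVk12653 against WT 2 fell, Irf2 (-2.51 ± 0.65) and Pou2f1 (-0.99 ± 0.20), the gene of the ubiquitous octamer factor OCT1. These 2 are 16.7% of those tested, beside 28.2% of all genes.

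**Figure D4:**
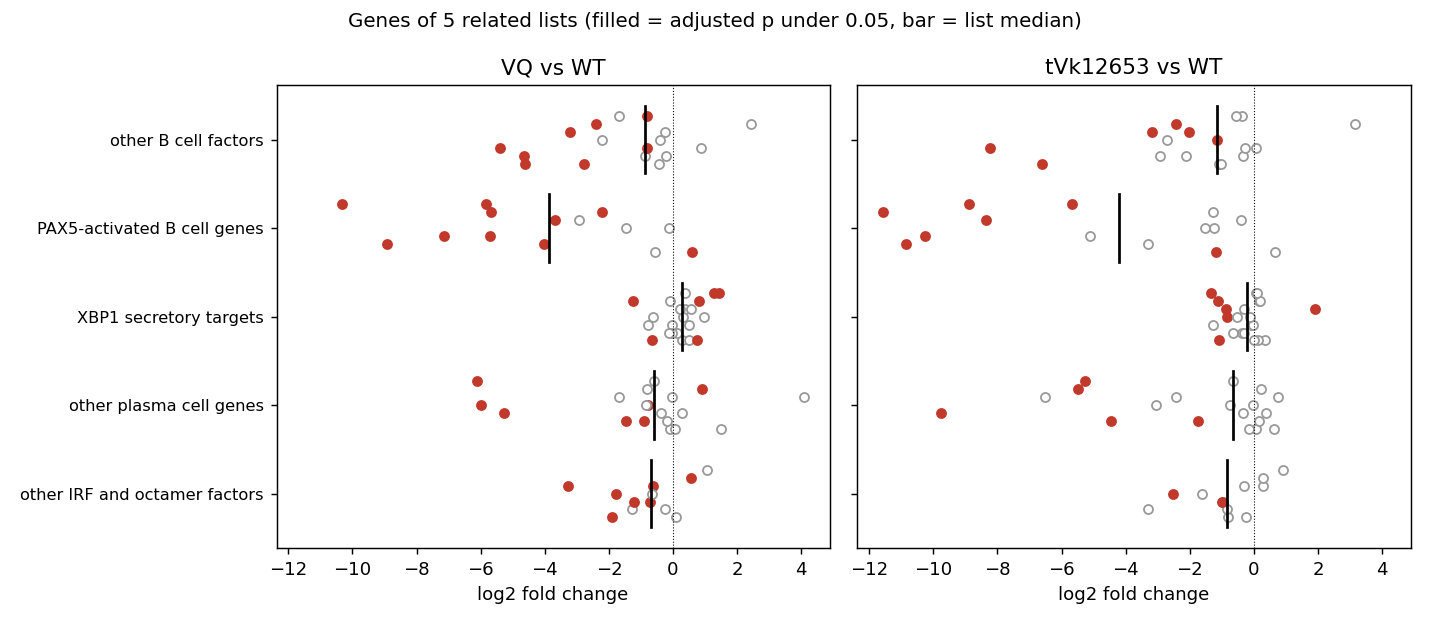
log2 fold changes of the tested genes of 5 related lists in VQ against WT and tVk12653 against WT, with filled symbols for an adjusted p under 0.05 and a bar at each list median. The median of genes activated by PAX5 lies at -3.86 in VQ and -4.21 in tVk12653, while the median of XBP1 secretory targets lies at 0.29 in VQ and -0.22 in tVk12653.

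For each member the genes with the most similar pattern were sought among 10239 others by Pearson correlation of log2 CPM over the 13 libraries, as a description in which points share groups and lines. Irf8 was most like Ctsh, a lysosomal protease (0.985), and Trio (0.984), and Bcl6 like Fam53b and Tnfrsf1b (0.975 for both). Bach2 was most like Cdc5l (0.979) and Exoc6 (0.978): Exoc6 averaged 11.1, 9.26 and 42.2 CPM in D1, D4 and D5, 11.2 CPM in tVk12653, 33.0 CPM in V and 53.0 CPM in WT. Pax5 was most like Nfkbid (0.953) and Glul (0.927), which averaged 4.97 and 5.53 CPM in V, against 22.6 and 22.7 CPM in WT. Pou2f2 was most like Mvp (0.980) and Rsl1 (0.977).

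Irf4 was most like Slc25a1, the mitochondrial citrate carrier (0.937), and Tmem8b (0.906). Xbp1 was most like Clptm1l (0.953) and Erlin2 (0.914), Pou2af1 like Slc48a1 (0.962) and Clec16a (0.933), Prdm1 like Slc27a1 (0.918) and Kdm4b (0.915), and Zbtb20 like Glcci1 (0.952) and Eri3 (0.951).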

How the data were processed

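RNA of 50000 cells per library, sorted from bone marrow on CD138, B220 and CD45.2, was extracted with RNeasy Micro and made into libraries with the SMARTer Stranded Total RNA-Seq Pico kit, per the labels' protocols. The authors deposited whole-number gene counts for 13 libraries, not normalized; STAR 2.6.1d and GRCm38.p6 are named in the submitters' processing notes. The counting tool, annotation, strand setting and any filter on reads: not given in the sources used here, so antisense reads may be included. From these counts, edgeR 4.0.16 (R 4.3.3; TMM factors, filterByExpr with a minimum count of 10 and total of 15, robust quasi-likelihood test, Benjamini-Hochberg adjustment over all genes, threshold 0.05) was fitted to 11 units in 4 arms, with the recipients of each VQ line summed. D1 against D5 was fitted on all 13 libraries with a mean for each of 6 groups. CPM are counts divided by library totals and TMM factors. DESeq2 1.42.0, other scaling and filters, a replicate block and leaving out libraries were the alternatives. Same-numbered V and WT libraries correlated weakly after group means were removed (r = 0.125 to 0.190, against -0.144 to -0.038 for other numbers). Removing group means ties these ranges to each other, and the labels do not pair the libraries, so the block was an alternative only. The scripts were tested on simulated data. Members and lists were chosen with earlier results of these data known. Named genes of a list are taken from the 4 largest changes past the threshold, of which 1 is not reported here; other called genes, and those with 0 counts, were named after their values were seen. Most similar genes are the 2 with the highest correlation among genes of at least 5 CPM on average.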

Additional observations from a re-analysis of the deposited data

How the results depend on the processing

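Of 790 values of the members across alternatives, 686 kept their direction and their side of the threshold, 32 lost the call, 47 gained it and 25 changed sign. With all 13 libraries and 1 mean per group, which treats recipients of a line as replicates, 12835 genes were tested, as with the replicate block added. Genes called were 24 in V against WT, 7359 in VQ against WT, 6248 in tVk12653 against WT, 6885 in VQ against V, 5727 in tVk12653 against V and 5028 in VQ against tVk12653. Members called were 7, 7, 6, 5 and 2 in the last 5. With the replicate block added, genes called were 91, 6893, 5965, 6417, 5381 and 5084 in the same order, and members called were 6 in tVk12653 against WT, 6 in VQ against V, 6 in tVk12653 against V and 3 in VQ against tVk12653. In V and WT alone the replicate block gave 479 genes, and 132 without replicate 2 of either group, a setting chosen after seeing the data. DESeq2 called 45 genes and 1 member in V against WT, 2121 genes in VQ against tVk12653, 5 members in tVk12653 against WT and 3 in tVk12653 against V. Without the low count filter, V against WT had 3 genes and VQ against tVk12653 had 878 of 20284 genes and 0 members (Pou2af1 adjusted p = 0.0523 with edgeR). Without WT replicate 2 and D1 replicate 1, tVk12653 against WT had 2160 genes, and tVk12653 against V had 2460 of 11846 genes and 2 members.

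Leaving out 1 library or line at a time gave 2505 to 4516 genes in VQ against WT (3 to 6 members), 1087 to 2356 in tVk12653 against WT (1 to 3), 1694 to 4010 in VQ against V (1 to 3), 662 to 1691 in tVk12653 against V (1), 138 to 2003 in VQ against tVk12653 (0 to 2) and 3901 to 4145 in D1 against D5 (3 to 4). It gave both signs of log2 fold change for Prdm1 (-0.45 to 0.013), Xbp1 (-0.068 to 0.28) and Zbtb20 (-0.051 to 0.26) in V against WT, Zbtb20 in VQ against WT (-0.08 to 0.42), Prdm1 (-0.19 to 0.32) and Pou2f2 (-0.72 to 0.14) in tVk12653 against WT, Zbtb20 (-0.20 to 0.30) and Pax5 (-1.79 to 0.19) in VQ against V, Irf4 in tVk12653 against V (-0.28 to 0.003), and Xbp1 (-0.082 to 0.52), Bcl6 (-0.66 to 0.39), Bach2 (-0.82 to 4.50) and Irf8 (-0.25 to 5.61) in VQ against tVk12653. Without WT replicate 2 and D1 replicate 1, V against WT gave Xbp1 -0.068 and Zbtb20 -0.051, and tVk12653 against WT gave Prdm1 -0.15. The block in V and WT alone, without replicate 2 of either group, gave Xbp1 -0.012 and Zbtb20 -0.027. Zbtb20 in VQ against V was -0.027 with the block, and Irf8 in VQ against tVk12653 was -0.43 with 1 mean per group and -0.41 with the block. None of these sign changes involved a called value, and the cause was not tested. Pax5, Bcl6, Bach2 and Irf8 had 0 to 24 reads per tumour library outside D5 Bach2, which limits their precision there.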
